A study of Mus musculus with 2 samples.

Results

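The Robo receptors and Slit ligands of the mouse are described here through 6 genes, Robo1, Robo2, Robo3, Slit1, Slit2 and Slit3. They were taken by symbol from the 32285 genes of the deposited matrices, and all 6 matched 1 row each. The cells came from mouse forebrain at embryonic day 18.5, in 2 droplet libraries. One was labelled wild type (WT) and the other Cyfip2 knockout, each was made from a pool of 2 forebrains, and no agent was named for either. Cyfip2 is part of the WAVE complex, an activator of branched actin assembly. With 1 library per label there is no spread between replicates, no test was made, and every interval covers counting error only.

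Slits are large secreted glycoproteins, and Robos are single-pass receptors of the immunoglobulin superfamily that bind them. Slit binding to Robo1 or Robo2 repels growing axons and migrating neurons through regulators of small GTPases such as Rac and Cdc42, and so of actin. In the embryonic forebrain the pathway is known for guiding corticofugal, callosal and thalamocortical axons, for steering interneurons, and for restraining progenitor division. Robo3 differs from the other receptors in that it promotes midline crossing of hindbrain and spinal axons and, in mammals, does not bind Slits with high affinity.

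The libraries held 123978461 (wild type) and 150828048 (knockout-labelled) UMIs, counts of distinct captured molecules. After cell calling and removal of doublets, 8426 and 11533 cells remained, with medians of 9567 and 7783 UMIs per cell. The libraries shared 32 called barcodes, 0.352% and 0.249% of their cells, against 17.2 that their sizes alone would give. Clustering without the Robo and Slit genes gave 30 clusters and 18 classes large enough in both libraries. A class name says that its cells are like the named type by their marker genes, and excitatory and progenitor clusters that met no class name keep their number. Tags of Cyfip2 were not depleted over all cells of the library labelled knockout, at 84.9 CPM (UMIs per 1000000 UMIs) in wild type and 84.4 CPM there. In progenitors they were higher there, at 34.2 and 61.9 CPM. Within these, ganglionic eminence progenitors had 14.1 and 55.1 CPM and progenitor cluster 16 had 62.1 and 63.6 CPM. Immune cells had 3.67 and 46.4 CPM, from 4 and 87 UMIs, and vascular cells 15.1 and 126 CPM, from 6 and 142 UMIs. Tags of Cyfip2 were lower in the library labelled knockout in excitatory neurons, at 103 and 92.6 CPM, and in GABAergic neurons, at 86.5 and 79.1 CPM. Which part of the gene was targeted is not given in the sources used here, so these tags do not check the label. Below, a pair of values gives wild type first and the library labelled knockout second.

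Robo1 and Robo2 lie on chromosome 16, Robo1 at chr16:72308306-73046095 on the plus strand and Robo2 at chr16:73891839-74411825 on the minus strand (mm10, GENCODE). Their facing ends are 846 kb apart. Robo3 lies at chr9:37415669-37433246 and its end is 553 bases from that of Robo4, the endothelial member of the family. Slit1 lies at chr19:41600257-41743665, Slit2 at chr5:47983138-48307733 and Slit3 at chr11:35121224-35708507. Promoter sequence from RefSeq (GRCm38.p6, the mm10 assembly) was matched for 5 of the 6 genes. The 250 bases before a start are shown for both main receptors, whose levels were high and low in much the same classes, and for Slit2, whose levels did not follow theirs. Sequences run 5′ to 3′ on the strand of the gene. Capitals mark E-boxes, CANNTG, which read the same on both strands, and TATA boxes, TATAAA, searched on both strands.

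Robo1 chr16:72662899-72663148 plus strand: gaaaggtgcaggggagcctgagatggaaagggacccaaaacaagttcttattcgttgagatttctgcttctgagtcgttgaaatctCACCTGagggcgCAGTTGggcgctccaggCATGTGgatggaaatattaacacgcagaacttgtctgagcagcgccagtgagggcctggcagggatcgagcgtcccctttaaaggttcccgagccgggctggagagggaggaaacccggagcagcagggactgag
Robo2 chr16:74411826-74412075 minus strand: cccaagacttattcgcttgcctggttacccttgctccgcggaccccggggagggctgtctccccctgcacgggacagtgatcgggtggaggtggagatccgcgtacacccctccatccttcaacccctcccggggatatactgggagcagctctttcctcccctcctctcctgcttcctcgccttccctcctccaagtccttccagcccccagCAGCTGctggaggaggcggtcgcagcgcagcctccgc
Slit2 chr5:47982905-47983154 plus strand: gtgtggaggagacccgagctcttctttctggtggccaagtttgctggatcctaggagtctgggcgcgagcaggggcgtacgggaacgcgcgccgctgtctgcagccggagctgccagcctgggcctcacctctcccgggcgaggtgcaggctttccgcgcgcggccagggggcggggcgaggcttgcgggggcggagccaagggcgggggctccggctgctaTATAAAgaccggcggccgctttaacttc

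The Robo1 window holds 3 E-boxes and the Robo2 window 1, while 66.2% of 32851 RefSeq windows of the same length hold at least 1. The Slit2 window holds a TATA box that begins 28 bases before the start, and 12.4% of windows hold those letters. G and C make up 56.0% of the Robo1 window, 65.6% of the Robo2 window and 69.6% of the Slit2 window. The RefSeq start of Robo1 lies inside the gene span given above, and Robo2 has 3 RefSeq starts, of which the one next to that span is shown. A match is a description of the letters and not of a bound site.

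The receptors Robo1 and Robo2 came mainly from excitatory neurons, and the ligands came from smaller sets of cells that differed between the Slits. Excitatory neurons made up 57.3% of wild-type and 52.0% of knockout-labelled cells but held 84.7% and 79.4% of Robo1 UMIs and 85.5% and 80.8% of Robo2 UMIs. Progenitors held 25.2% of Slit1 UMIs in each library and 32.6% and 25.7% of Slit2 UMIs. GABAergic neurons, 24.3% and 30.6% of cells, held 48.7% and 58.2% of Slit3 UMIs and 81.2% and 66.9% of the few Robo3 UMIs. Cells that carry more RNA give more UMIs to these shares, so levels below are given as CPM within a class.

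**Figure D1:**
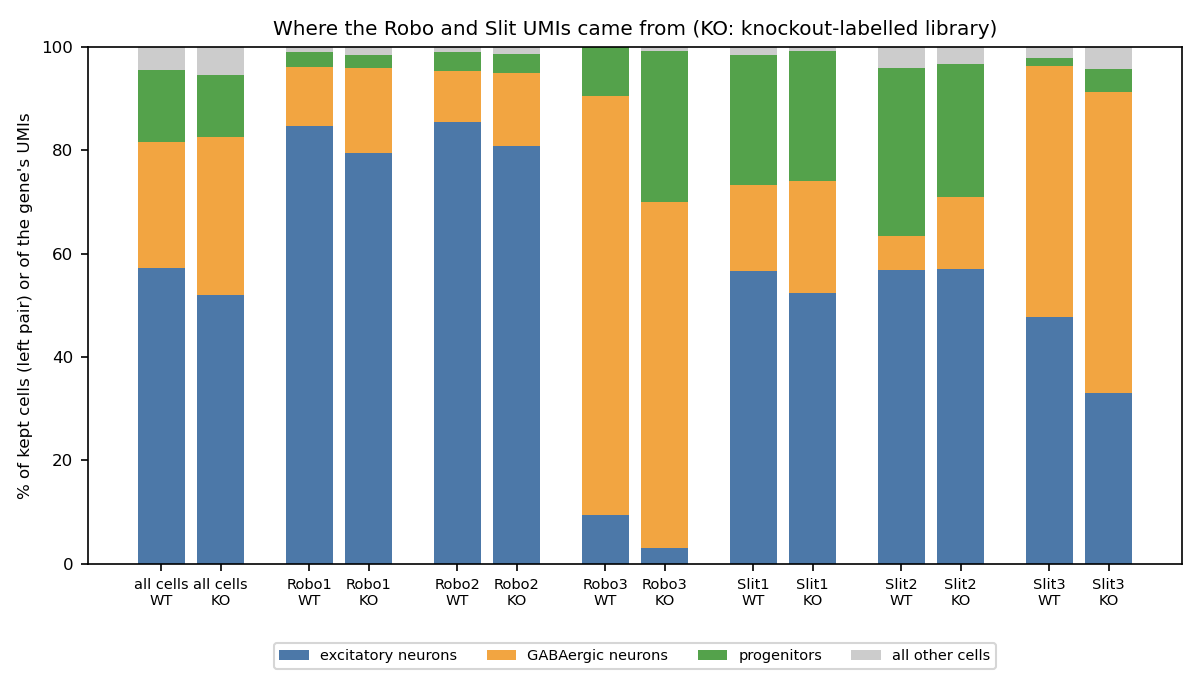
Share of each gene's UMIs (y axis, %) that came from excitatory neurons, GABAergic neurons, progenitors and all other kept cells, in the wild-type (WT) and knockout-labelled (KO) library, with the share of cells in the left pair of bars. Excitatory neurons held 85.5% and 80.8% of Robo2 UMIs but 47.7% and 33.0% of Slit3 UMIs.

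Robo1, a Slit receptor of axons and migrating neurons, had its highest level in excitatory cluster 13, whose leading genes include Cck, Nr4a3, Calb2 and Nrp2. Its level there was 319 CPM (95% Poisson interval 303 to 335) in wild type and 365 CPM (348 to 382) in the other library. Excitatory clusters 9 (266 and 253 CPM), 5 (255 and 267 CPM) and 11 (236 and 277 CPM) followed, and no order among these 3 was separated in both libraries. Cluster 9 is led by Nts and Fezf2, the latter a regulator of corticospinal neurons, cluster 5 by Ntf3 and Cbln2, and cluster 11 by Tfap2d and Thsd7a. Next came upper-layer neurons, which send axons within the cortex, at 185 and 237 CPM, striatal projection neurons, the inhibitory output neurons of the striatum, at 182 and 215 CPM, and excitatory cluster 4 at 177 and 207 CPM.

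Some class means of Robo1 joined unlike clusters. Among upper-layer neurons, cluster 0 had 244 and 307 CPM and cluster 8 had 129 and 156 CPM. Among migrating excitatory neurons, at 141 and 142 CPM, cluster 1 had 265 and 258 CPM and cluster 3 had 70.4 and 74.5 CPM. Layer 6 and subplate neurons, the deepest cortical neurons, stood low among excitatory classes at 59.7 and 47.1 CPM. Medial eminence interneurons, which migrate into the cortex from the ventral telencephalon, had 32.4 and 35.0 CPM, and caudal or lateral eminence interneurons 77.9 and 91.0 CPM. In progenitor classes the level of Robo1 ran from 14.6 CPM (ganglionic eminence) to 30.9 CPM (dividing) in wild type. Immune cells had 0.917 and 5.33 CPM, and barcodes under 100 UMIs, which hold free RNA, had 143 and 152 CPM, so the lower class levels of Robo1 may include free RNA.

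Robo2, a Slit receptor with roles that overlap those of Robo1, peaked elsewhere, in migrating neurons, with 750 CPM (734 to 767) and 783 CPM (766 to 800). They lay above upper-layer neurons (594 and 724 CPM) in both libraries, by 0.34 and 0.11 on the log2 scale. Excitatory cluster 4 (610 and 631 CPM) was not separated from upper-layer neurons in both libraries. The next step, from cluster 4 to striatal projection neurons (365 and 354 CPM), was 0.74 and 0.83. Single clusters reached further: cluster 1 of the migrating neurons had 1151 and 1187 CPM and cluster 0 of the upper-layer neurons 894 and 1018 CPM, while their class partners, clusters 3 and 8, had 520 and 544 CPM and 305 and 383 CPM.

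Cajal-Retzius cells, the Reelin-secreting cells of the cortical surface, carried 293 and 266 CPM of Robo2. In excitatory clusters 9 and 13, where Robo1 was high, Robo2 stood at 188 and 208 CPM and at 186 and 196 CPM. Progenitor cluster 16, led by Eomes and Neurog2, genes of intermediate progenitors, had 112 and 155 CPM. Radial glia, the neural stem cells, had 34.3 and 44.6 CPM and ganglionic eminence progenitors 12.3 and 27.7 CPM. Immune cells had 31.2 and 17.1 CPM, of which 1 wild-type cell held 20 of 34 UMIs, and free RNA had 242 and 245 CPM. Ganglionic eminence progenitors lay below immune cells in wild type and above them by 0.70 (0.10 to 1.33) on the log2 scale in the other library, so their Robo2 did not stand above that of immune cells in both.

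The class order of Robo1 was nearly the same in both libraries (Spearman correlation 0.99 over 18 classes), as was that of Robo2 (0.99). As a description across the classes, log2 levels of Robo1 and Robo2 had a Pearson correlation of 0.81 in wild type and 0.82 in the other library, and the points of a library share its depth. Every other pair of the 6 genes lay between -0.37 and 0.43. Neighbouring classes were separated in both libraries at 6 of 17 steps for Robo1 and 7 of 17 for Robo2.

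**Figure D2:**
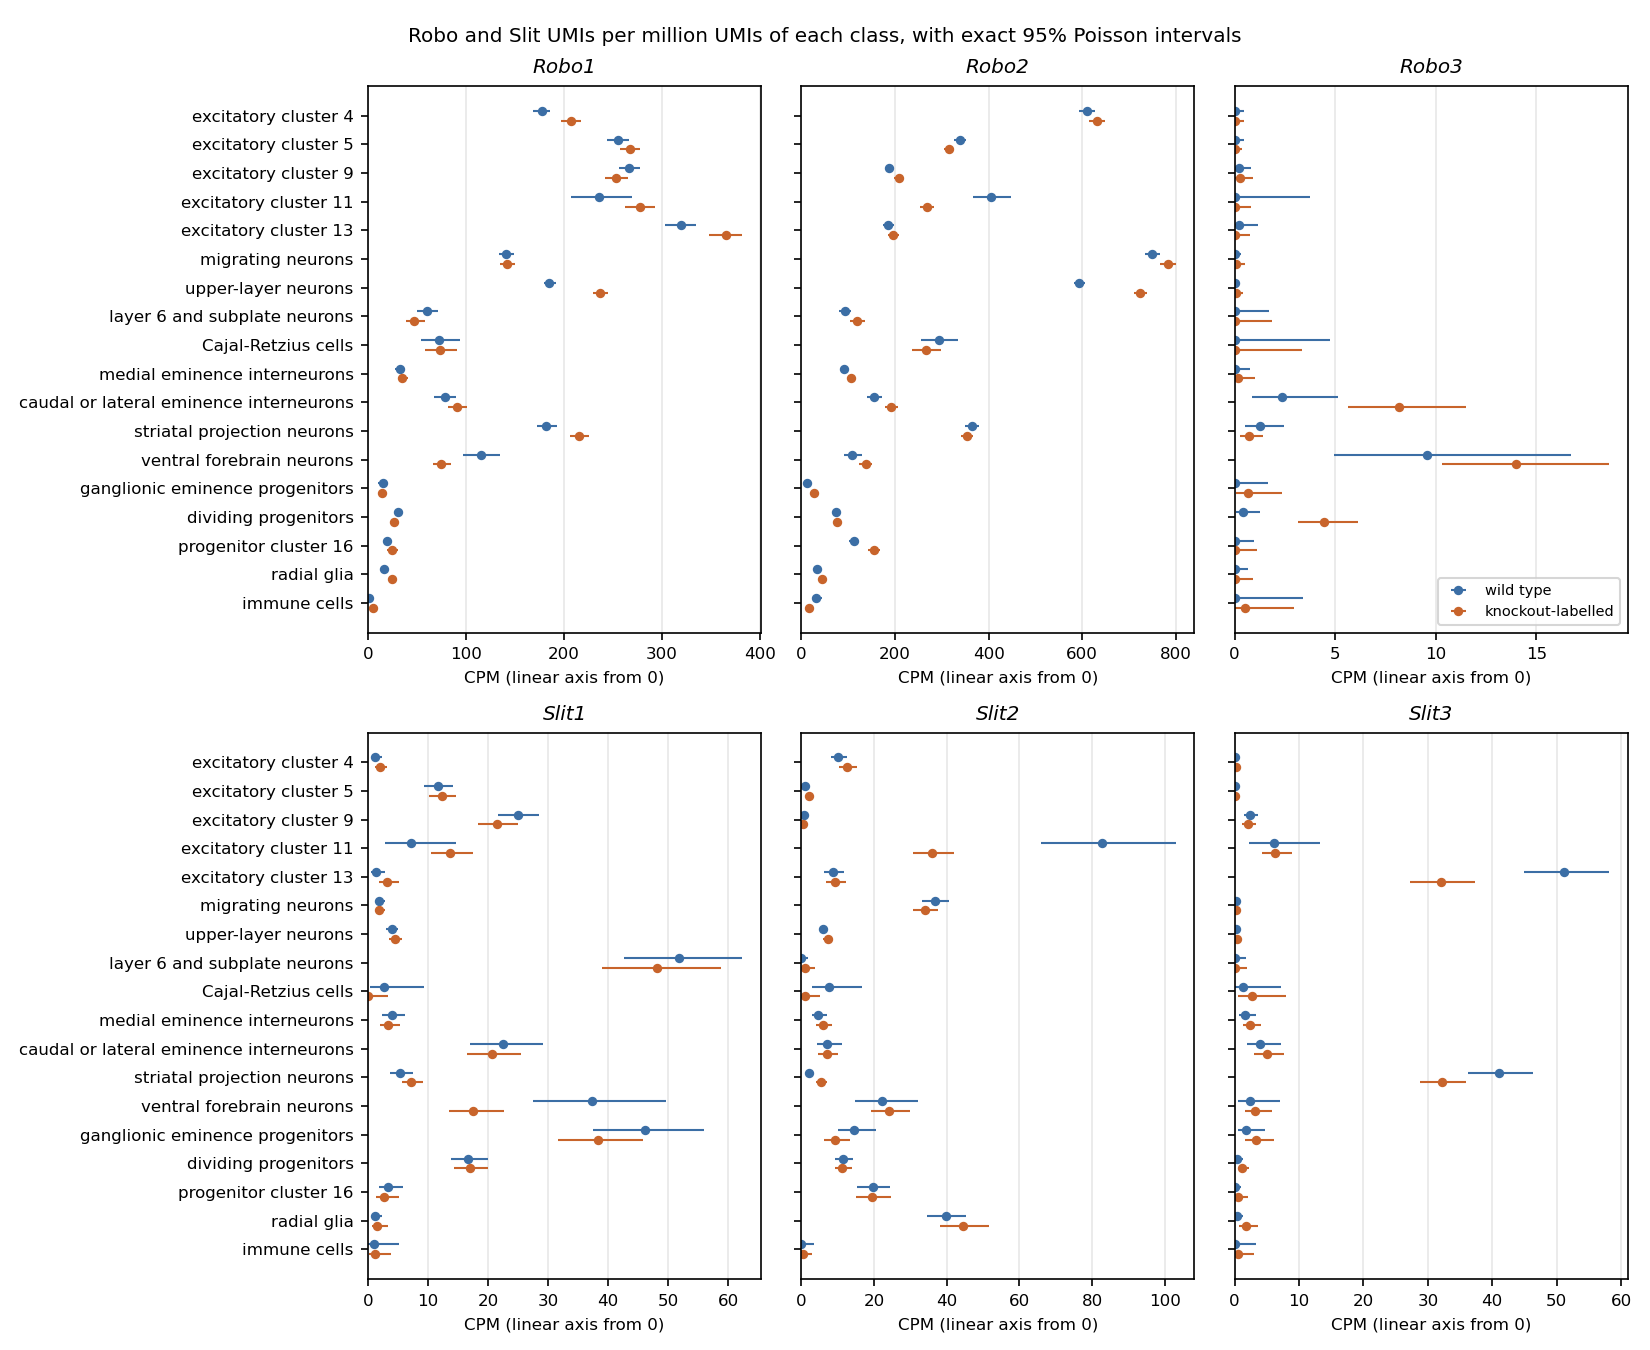
Level of each gene (x axis, CPM, linear from 0, with its own range in each panel) in 18 classes (y axis) in the wild-type and knockout-labelled library, with exact 95% Poisson intervals. Robo2 peaks in migrating neurons (750 and 783 CPM), Robo1 in excitatory cluster 13 (319 and 365 CPM), and the Slits each in a few classes.

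The balance of the receptors differed between classes by more than their counting error. Of the UMIs of Robo1 and Robo2 together, Robo1 gave 63.2% (exact 95% interval 61.2 to 65.1) in wild-type excitatory cluster 13 and 58.7% (57.1 to 60.2) in cluster 9. The knockout-labelled values were 65.0% (63.2 to 66.8) and 54.9% (53.3 to 56.5). Robo1 gave 42.9% and 45.8% in cluster 5, 33.3% and 37.8% in striatal projection neurons, and 23.8% and 24.7% in upper-layer neurons. At the low end stood migrating neurons with 15.8% and 15.4%, and progenitor cluster 16 with 14.9% and 13.7%. A share above 50% shows only the balance of captured tags, because the receptors may be captured at different rates.

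The intervals of this share lay apart between the libraries in 7 of 18 classes, with the share of Robo1 higher in the library labelled knockout in 4 and lower in 3. No other pair of genes was compared in this way, so how often such intervals lie apart between these libraries is not known. In excitatory cluster 11, Robo1 gave 36.8% (33.0 to 40.7) of UMIs in wild type and 50.8% (48.8 to 52.8) in the knockout-labelled library. In ventral forebrain neurons the shares were 51.2% (45.2 to 57.2) and 35.3% (31.8 to 38.9). Cluster 11 held 1.57% and 5.32% of cells, and ventral forebrain neurons 1.58% and 3.06%, so these classes also differed in size. The other classes were excitatory clusters 4, 5 and 9 and striatal projection neurons, with the shares given above or, for cluster 4, 22.5% and 24.7%, and layer 6 and subplate neurons, at 39.1% (33.8 to 44.6) and 28.4% (23.6 to 33.7).

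**Figure D3:**
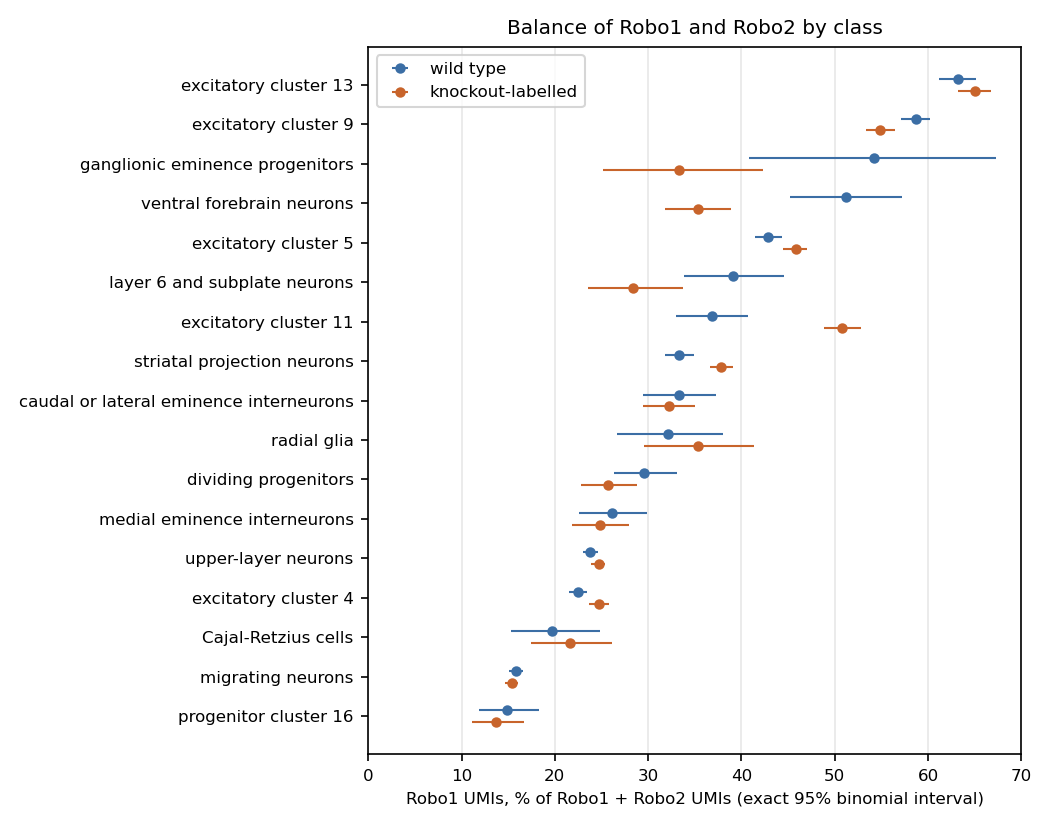
Robo1 UMIs as a percentage of Robo1 and Robo2 UMIs (x axis) in 17 classes (y axis, ordered by the wild-type value; immune cells, with few such UMIs, are left out) in each library, with exact 95% binomial intervals. The share runs from 14.9% in progenitor cluster 16 to 63.2% in excitatory cluster 13 in wild type, and in excitatory cluster 11 the intervals of the libraries lie apart.

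Tags of both receptors were often found in the same cell. With every cell thinned to 1000 UMIs, a Robo2 UMI was found in 59.8% and 63.0% of cells of cluster 0, in 3.98% and 4.98% of radial glia, and in 1.45% and 0.699% of immune cells. Unthinned, 98.2% and 98.1% of cluster 0 cells had one at medians of 7869.5 and 6538.0 UMIs, 30.4% and 33.8% of radial glia at 15623.5 and 14230.0, and 7.25% and 14.7% of immune cells at 15353 and 12641. A Robo1 UMI was found after thinning in 26.3% and 33.3% of cells of excitatory cluster 13 (83.8% and 88.2% unthinned) and in 0 and 0.699% of immune cells (1.45% and 6.29%). Among wild-type excitatory neurons with a Robo1 UMI, 43.9% (40.5 to 47.3) also had a Robo2 UMI, against 39.0% (37.5 to 40.6) of those without one. The knockout-labelled values were 41.7% (38.9 to 44.6) and 40.2% (38.8 to 41.6). The intervals overlap in each library, barely so in wild type, and overlap does not show that the shares are equal. These thinned values mix classes and were not compared within each class.

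Robo3 was found in few cells. It had 32 UMIs in the wild-type library and 133 in the other, and its level stayed below 20 CPM in each of the 18 classes. Ventral forebrain neurons led with 12 and 48 UMIs, which gave 9.55 CPM (4.93 to 16.7) in wild type and an interval of 10.3 to 18.6 CPM in the other library. Caudal or lateral eminence interneurons had 2.36 and 8.18 CPM, from 6 and 33 UMIs, all of which lay in cluster 7 of that class. Dividing progenitors had 3 and 37 UMIs, or 0.427 and 4.45 CPM, and cluster 12 held 3 and 36 of these. Striatal projection neurons had 8 and 7 UMIs.

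A Robo3 UMI was seen in 6.77% and 7.37% of ventral forebrain neurons (2.26% and 1.42% thinned), in 0.704% and 4.10% of dividing progenitors, and in 0 and 0.699% of immune cells. Those dividing progenitors had medians of 16189.5 and 13201.5 UMIs, and after thinning the shares were 0 and 0.328%. Excitatory neurons had 3 and 4 Robo3 UMIs among 4824 and 6001 cells. Free RNA had 0.923 and 1.34 CPM, so the lower class levels of Robo3 may include free RNA.

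Each Slit had its own pattern, and Slit1 was highest in deep cortical and ventral cells. It stood at 51.9 CPM (42.7 to 62.4) and 48.2 CPM (39.0 to 58.9) in layer 6 and subplate neurons, where a Slit1 UMI was seen in 40.5% and 35.6% of cells (5.13% and 3.61% thinned) against 1.45% and 1.40% of immune cells. Ganglionic eminence progenitors followed with 46.1 and 38.3 CPM. Within caudal or lateral eminence interneurons, cluster 21 had 62.4 and 66.4 CPM and cluster 7 had 4.02 and 5.29 CPM. Excitatory cluster 9 had 24.9 and 21.4 CPM, while upper-layer neurons had 3.91 and 4.45 CPM and excitatory cluster 4 had 1.21 and 1.91 CPM.

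Among dividing progenitors, Slit1 was in cluster 12, at 24.7 and 22.2 CPM, and low in cluster 22, at 1.24 and 2.68 CPM. In radial glia it gave 6 UMIs in each library. Free RNA held 13.2 and 14.5 CPM of Slit1, so class levels below that value, such as those of upper-layer neurons, may include free RNA.

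Slit2 was present in excitatory cluster 11, in radial glia and in young migrating neurons. Excitatory cluster 11 had 82.8 CPM (65.9 to 103) in wild type and 36.0 CPM (30.7 to 41.9) in the other library. Radial glia had 39.7 CPM (34.6 to 45.3) and 44.6 CPM (38.2 to 51.7). Cluster 1 of the migrating neurons had 61.2 and 65.4 CPM and cluster 3 had 22.8 and 15.5 CPM. Slit2 was low where Slit1 was high among cortical neurons, at 0.675 and 0.380 CPM in excitatory cluster 9 and with 0 and 2 UMIs in layer 6 and subplate neurons.

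Tags of Slit2 and Robo2 were both found in cluster 1 of the migrating neurons, where Robo2 stood at 1151 and 1187 CPM. Of cluster 1 cells with a Slit2 UMI, 144 of 150 in wild type and 155 of 163 in the knockout-labelled library also had a Robo2 UMI. After thinning the shares were 65.2% (49.8 to 78.6) and 51.9% (37.8 to 65.7), against 63.5% and 66.3% of cells without a Slit2 UMI. The share of cells with Robo2 was thus not raised beyond its interval by the presence of a Slit2 UMI in either library. In radial glia, 0 of 12 and 1 of 17 cells with a Slit2 UMI after thinning had one of Robo2.

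Slit3 reached 20 CPM in 2 of 18 classes in each library. Excitatory cluster 13 had 51.2 CPM (45.0 to 58.1) and 32.0 CPM (27.2 to 37.4). This cluster, 3.74% and 3.38% of cells, held 41.7% and 24.5% of all Slit3 UMIs. Striatal projection neurons had 41.0 and 32.2 CPM, nearly all from cluster 6 of that class, led by Adora2a, Drd2 and Penk, genes of indirect-pathway neurons, which had 103 and 89.7 CPM. Clusters 10 and 14 of the class had 4.37 and 6.34 CPM and 1.18 and 0.292 CPM. A Slit3 UMI was seen in 30.0% and 25.5% of cells of cluster 6 (10.3% and 7.40% thinned), in 29.8% and 21.3% of cells of excitatory cluster 13 (6.67% and 2.56% thinned), and in 0 and 0.699% of immune cells.

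Excitatory cluster 13 thus joined the highest Robo1 level with a high Slit3 level. Of its wild-type cells with a Slit3 UMI after thinning, 33.3% (7 of 21) also had a Robo1 UMI, against 25.9% of those without. The knockout-labelled shares were 30.0% (3 of 10) and 33.4%. In striatal cluster 6, 10.5% (2.94 to 24.8) of wild-type cells with a Slit3 UMI had a Robo2 UMI, against 22.3% (17.9 to 27.2) of those without, and the knockout-labelled shares were 9.30% (2.59 to 22.1) and 18.8% (15.6 to 22.3). The intervals of each of these pairs overlap, which does not show that the shares are equal.

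The 4 genes whose class pattern was most like that of each member were picked by the correlation of log2 levels over the 18 classes, from 10934 genes (10935 for Robo3). The levels were averaged over both libraries, so a correlation within 1 library can be lower. For Robo1 they were Igsf3, an immunoglobulin superfamily gene (Pearson's r 0.95), Elmod1 (0.93), the Src-family kinase gene Fyn (0.92) and Tspan13, a tetraspanin gene (0.91). For Robo2 they were Arl15 (0.90), Ppfia2, a liprin gene (0.87), Gria2, which encodes an AMPA receptor subunit (0.87), and Prkx (0.86). For Slit2 they were Prdm16, a regulator of radial glia (0.92), Aqr (0.84), Ptpn13 (0.82) and 3110099E03Rik (0.81). Within the libraries Aqr reached 0.87 and 0.69, and 3110099E03Rik 0.61 and 0.72. In excitatory cluster 11, 3110099E03Rik stood at 2.02 and 25.9 CPM, while Slit2 stood at 82.8 and 36.0 CPM. The matches for Slit1 were weaker, with Kif26a at 0.73, Sdk2 at 0.71, Donson at 0.70 and Rnf168 at 0.69. For Slit3 they were Zfp385b (0.74), the striatal transcription factor gene Ebf1 (0.73), 8030451O07Rik (0.71) and Gm43445 (0.70). For Robo3, Fgd5 reached 0.97, Gng4 and Slc10a4 0.92 each and Nrsn2 0.90, but the pattern of Robo3 rests on 165 UMIs.

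Between the libraries, Robo1 and Robo2 differed by less than 1.5-fold in excitatory neurons, GABAergic neurons and progenitors taken as whole groups, and so did Slit2 in progenitors, at 21.9 and 19.5 CPM. Robo1 stood at 205 and 231 CPM in excitatory neurons, 111 and 130 CPM in GABAergic neurons, and 22.3 and 23.5 CPM in progenitors. Robo2 stood at 476 and 495 CPM, 220 and 235 CPM, and 62.6 and 75.6 CPM in the same groups. A gene was called here when it differed at least 1.5-fold (0.58 on the log2 scale) and the 95% interval of the ratio left out 1 (a rule of size). It was measured when it had 20 CPM in either library and 100 counts in both together, which the other members did not reach in these whole groups. Below that minimum, Slit2 stood at 5.40 and 8.56 CPM in GABAergic neurons, 0.67 (0.29 to 1.06) on the log2 scale, and Robo3 at 1.73 and 3.87 CPM, 1.16 (0.51 to 1.85). In progenitors Slit3 had 9 and 29 UMIs and Robo3 3 and 39 UMIs, with intervals of 0.57 to 2.95 and 2.05 to 6.04. By this rule 0.222% of measured genes were called in excitatory neurons, 0.585% in GABAergic neurons and 0.585% in progenitors. Log2 ratios divide the library labelled knockout by wild type.

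Across the 18 classes the 6 genes gave 108 comparisons, of which 44 were measured and 6 called, 1 of them higher and 5 lower in the library labelled knockout. That is 13.6%, against 1.93% of all measured genes over the same classes. Robo3 was measured in no class. Among the called values, Robo2 in ganglionic eminence progenitors (12.3 and 27.7 CPM) and Slit1 in ventral forebrain neurons (37.4 and 17.5 CPM) reached 20 CPM in 1 library only. They were thus measured only through the library in which they were higher. Of the calls, 2 were in excitatory cluster 11, where 6.64% of all measured genes were called, 2 in ventral forebrain neurons (5.19%), 1 in excitatory cluster 13 (1.91%) and 1 in ganglionic eminence progenitors (2.39%). Without the clusters whose share of cells differed over 1.5-fold between the libraries, cluster 11 and the ventral forebrain neurons among them, 2 calls remained. That setting removes these classes whole, so the loss of their calls followed from it. Ttr, a transcript of the choroid plexus, was called higher in all 4 of these classes, and the choroid plexus markers summed to 25.3 and 94.8 CPM in excitatory cluster 11 and to 89.9 and 110 CPM in ventral forebrain neurons. Their part in the calls was not tested. In counts summed over a class, a lower level in each cell and a smaller share of cells with the gene cannot be told apart.

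In excitatory cluster 11 both Slit2 and Robo2 were lower in the library labelled knockout. Slit2 stood at 82.8 and 36.0 CPM from 82 and 167 UMIs, which is -1.20 (-1.59 to -0.80) on the log2 scale, and the intervals of its levels do not overlap. Robo2 stood at 406 CPM (367 to 448) in wild type against 268 CPM (254 to 284), which is -0.60 (-0.76 to -0.43), just inside the rule. Robo1 stood at 236 and 277 CPM, 0.23 (0.03 to 0.44), short of the rule in the other direction. A Slit2 UMI was seen in 35.6% of wild-type and 17.1% of knockout-labelled cells of the cluster (6.82% and 3.59% thinned). A Robo2 UMI was seen in 79.5% and 63.9% of them, but after thinning in 24.2% and 23.5%.

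Cluster 11 held 132 wild-type and 613 knockout-labelled cells. Within it the markers of migrating neurons, a class with Slit2 and high Robo2, summed to 1291 and 755 CPM, with Sema3c, Neurod1 and Unc5d of 6 called lower and Rnd2 higher. Markers of layer 5 summed to 651 and 1182 CPM, with Bcl11b and Pcp4 of 5 called higher and Ldb2 lower. Those of upper-layer neurons summed to 2387 and 1696 CPM, with Rorb of 8 called higher and Cux2 lower. Those of hippocampal neurons summed to 1405 and 962 CPM, with 0 of 5 called. Those of the ventral forebrain list summed to 3.03 and 51.9 CPM, with Zic1 of 6 called higher. Their part in the levels of Slit2 and Robo2 was not tested.

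Ventral forebrain neurons, GABAergic cells led by Zic4, Sst, Lhx8 and Zic1, were lower in Slit1 and Robo1 in the library labelled knockout. Slit1 stood at 37.4 CPM (27.5 to 49.7) in wild type against 17.5 CPM (13.4 to 22.6), from 47 and 60 UMIs, which is -1.09 (-1.67 to -0.51). Robo1 stood at 115 CPM (96.6 to 135) against 74.6 CPM (65.7 to 84.3), which is -0.62 (-0.92 to -0.31). Robo2 stood at 109 and 137 CPM, 0.33 (0.05 to 0.61) or 0.61 with no doublet removed, and Slit2 differed by 0.11 (-0.53 to 0.78). The markers of medial eminence interneurons, a class with 3.94 and 3.31 CPM of Slit1 and 32.4 and 35.0 CPM of Robo1, summed to 933 and 1784 CPM here. Of these 8 markers, Sst, Sox6 and Npy were called higher and Maf lower. The ventral forebrain list itself summed to 1644 and 1377 CPM, with Lhx8 of 6 called lower. Markers of layer 6 and subplate neurons, where Slit1 was highest, summed to 360 and 282 CPM. Of these 9, Syt6, Nxph4 and Tbr1 were called higher and Tle4 and Foxp2 lower. The part of these lists in the result was not tested.

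Slit3 was lower in excitatory cluster 13, at 51.2 and 32.0 CPM from 242 and 156 UMIs, which is -0.68 (-0.98 to -0.38). With no doublet removed the value was -0.46, short of the rule. Markers of upper-layer neurons, a class with almost no Slit3, summed to 1057 and 1259 CPM in this cluster, with Cux2, Pou3f2 and Rorb of 8 called higher, and those of the ventral forebrain list to 157 and 330 CPM, with Zic1 and Zic4 of 6 called higher. Markers of hippocampal neurons summed to 3104 and 2085 CPM, with 0 of 5 called. Their part in the result was not tested. In striatal projection neurons, the other class with Slit3, the value was -0.35 (-0.59 to -0.11), and in cluster 6 alone -0.19 (-0.44 to 0.05).

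The call in the other direction was Robo2 in ganglionic eminence progenitors, at 12.3 CPM (8.12 to 17.9) and 27.7 CPM (22.1 to 34.3), from 27 and 84 UMIs, which is 1.17 (0.53 to 1.85). The wild-type level lies below that of immune cells given above, most of whose Robo2 UMIs came from a single cell. With no doublet removed the log2 value in ganglionic eminence progenitors was 0.33. Markers of radial glia, a class with 34.3 and 44.6 CPM of Robo2, summed to 1390 and 2003 CPM here, with Slc1a3 and Fabp7 of 10 called higher and Ednrb lower, and their part was not tested.

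Among the other progenitors, Robo1 in radial glia stood just outside the rule, at 16.2 CPM (13.1 to 20.0) and 24.3 CPM (19.7 to 29.7). It was measured there only through the library in which it was higher. Robo2 in progenitor cluster 16 stood at 112 and 155 CPM, 0.47 (0.29 to 0.66). In dividing progenitors the class value of Robo2, 0.04, joined unlike clusters, with 32.9 and 57.7 CPM in cluster 12 and 151 and 125 CPM in cluster 22. Robo1 in that class was at -0.23 (-0.51 to 0.04), and at 0.35 with no doublet removed. Slit2 in radial glia was at 0.17 (-0.13 to 0.46), and at 0.64 with no doublet removed.

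Below the rule of size, values of the receptors were more often above 0 than below. The interval of Robo2 lay above 0 in 10 of 17 measured classes and below in 2, and that of Robo1 above in 6 of 16 and below in 1. Over all measured genes and classes, 7.82% of intervals lay above 0 and 9.81% below, but most genes have fewer counts and so wider intervals than these receptors. Upper-layer neurons showed it for both receptors, with Robo1 at 0.35 (0.28 to 0.43) and Robo2 at 0.29 (0.25 to 0.33). In excitatory neurons as a whole Robo1 was at 0.17 (0.14 to 0.21), and Robo2 at 0.06 (0.03 to 0.08) or, without the clusters of uneven share, at 0.11. Robo1 in striatal projection neurons was at 0.24 (0.14 to 0.34), and at 0.07 without the cluster of that class whose share was uneven.

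**Figure D4:**
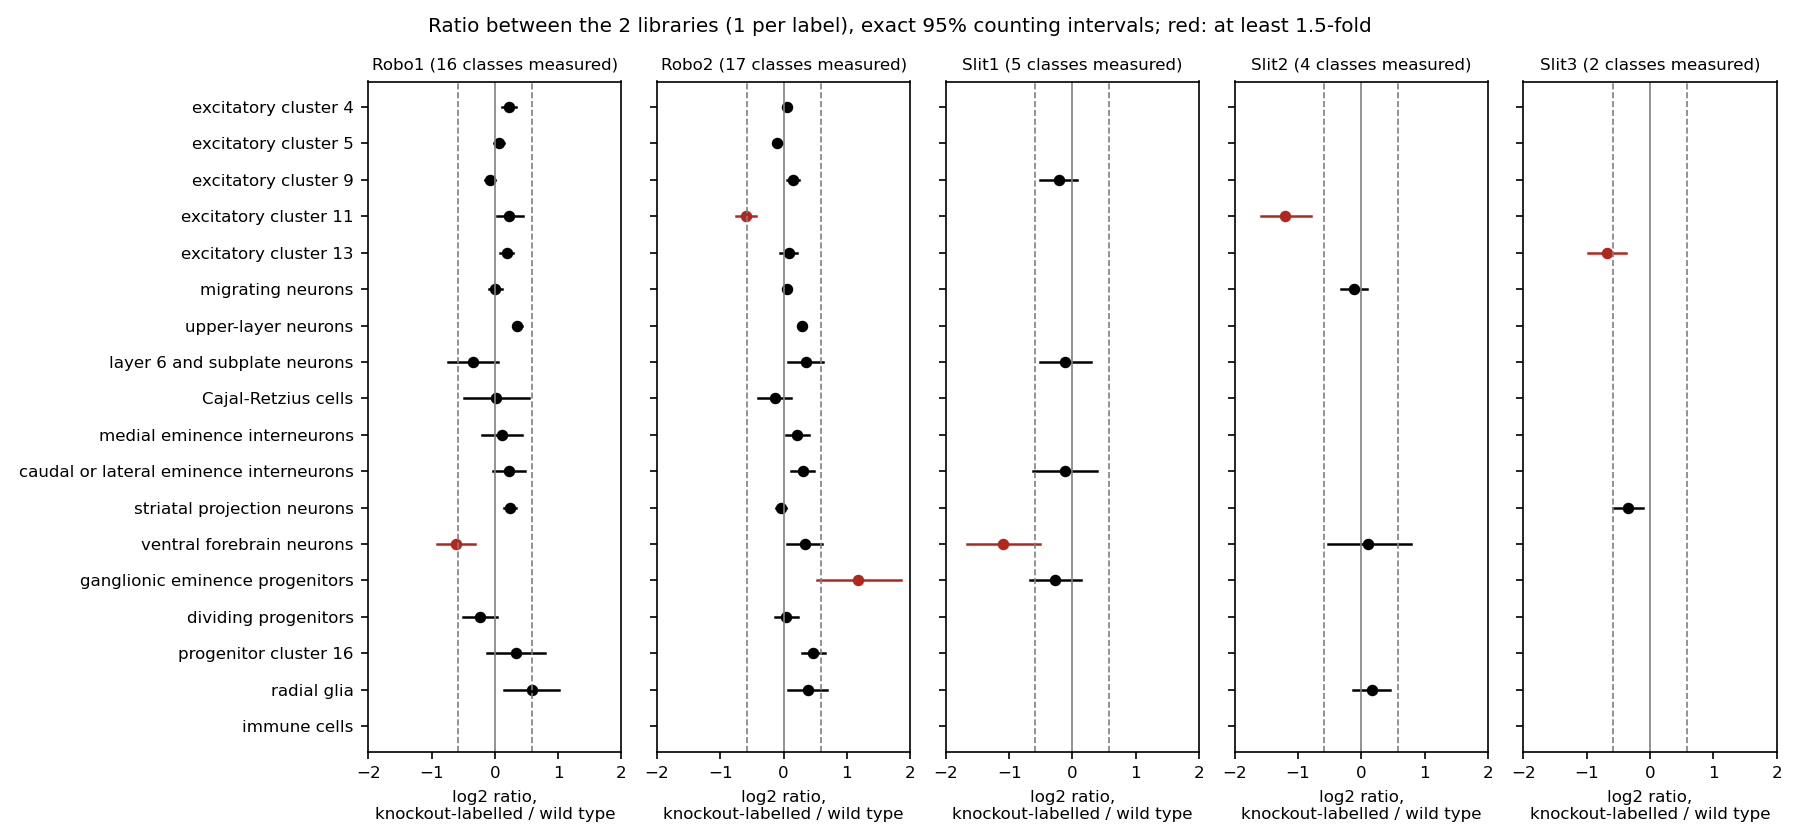
Log2 ratio (x axis, knockout-labelled divided by wild type) for each measured gene and class (y axis), with exact 95% counting intervals, dashed lines at 1.5-fold, and called values in red. Most Robo1 and Robo2 values lie between the dashed lines, and 5 of the 6 called values lie below 0.

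A list of other genes of the pathway had medians near those of all genes. It held 46 genes, of which 38 were measured in excitatory neurons, 40 in GABAergic neurons and 32 in progenitors, and their median log2 ratios were -0.04, -0.02 and -0.05. Over all measured genes the medians were -0.02, -0.01 and -0.03. In excitatory neurons the interval lay below 0 for 18 of the 38 genes and above for 3, while over all measured genes 23.7% lay below and 15.0% above. In GABAergic neurons 11 lay below and 5 above (15.0% and 11.2% of all genes), and in progenitors 10 and 2 (20.8% and 10.5%). The list had 1 call in these whole groups, Dcc in GABAergic neurons, where 0.585% of all genes were called. Dcc, the Netrin receptor gene, stood there at 68.0 and 103 CPM, 0.60 (0.49 to 0.70), and was not called with equal weight for each cluster, with no doublet removed, or without the clusters of uneven share. It stood at 126 and 143 CPM in excitatory neurons, 0.18 (0.14 to 0.23).

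Of 13 other ligands and receptors, 10 were measured in excitatory neurons, 10 in GABAergic neurons and 8 in progenitors. Flrt3, whose product is a membrane protein that binds Robo1, was at 80.7 and 57.9 CPM in excitatory neurons, -0.48 (-0.54 to -0.42). Plxna1, a Slit and semaphorin receptor gene, was at 30.3 and 25.8 CPM there. Nell2, whose product binds Robo3, was at 75.4 and 82.2 CPM in progenitors, 0.12 (0.02 to 0.23). Heparan sulphate proteoglycans aid Slit binding. Of these, the glypican gene Gpc1 was at 94.7 and 77.4 CPM in GABAergic neurons, -0.29 (-0.39 to -0.19), and the syndecan gene Sdc3 at 56.4 and 46.5 CPM in progenitors, -0.28 (-0.41 to -0.15). Dag1, the gene of dystroglycan, which binds Slits, was at 32.0 and 35.1 CPM in GABAergic neurons.

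In single classes Flrt3 and Dcc stood further apart between the libraries, and other genes of the list were also called. Over all measured genes and classes 1.93% were called, and the share of the list was not counted. Flrt3 was at 137 and 91.4 CPM in upper-layer neurons, -0.59 (-0.69 to -0.48), at 120 and 76.1 CPM in excitatory cluster 4, -0.66 (-0.81 to -0.51), and at 43.0 and 26.3 CPM in excitatory cluster 13. In ventral forebrain neurons it was at 70.8 and 45.9 CPM, -0.63 (-1.01 to -0.23). Dcc was at 20.9 and 54.1 CPM in caudal or lateral eminence interneurons, 1.37 (0.94 to 1.84). It was at 85.9 and 193 CPM in excitatory cluster 11, 1.17 (0.85 to 1.51), the cluster in which Slit2 and Robo2 were lower. Adam10 was called higher there, at 0.60 on the log2 scale. Ext1 was called higher in caudal or lateral eminence interneurons (0.75), Pak3 in radial glia (0.60) and Clasp2 in immune cells (0.93). Abl2 was called lower in progenitor cluster 16 (-0.82), Vasp in ventral forebrain neurons (-0.63) and Arhgap39 in layer 6 and subplate neurons (-0.77). So were Sos1 (-0.68) and Ctnnb1 (-0.62) in Cajal-Retzius cells. Pak3 in radial glia (18.1 and 27.4 CPM) and Abl2 in progenitor cluster 16 (25.8 and 14.6 CPM) were measured only through the library in which they were higher.

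Of 24 adaptors and effectors, 21 were measured in excitatory neurons, 24 in GABAergic neurons and 18 in progenitors, and 0 were called in these whole groups. Pak3, a kinase gene downstream of Rac and Cdc42, was at 110 and 134 CPM in GABAergic neurons, 0.29 (0.20 to 0.37), and at 118 and 143 CPM in progenitors, 0.28 (0.20 to 0.36). The kinase gene Abl2 was at 36.5 and 31.4 CPM in excitatory neurons. Srgap2, a GTPase-activating protein gene of the Slit-Robo pathway, was at 134 and 113 CPM in GABAergic neurons, -0.25 (-0.33 to -0.17), its relative Srgap1 at 127 and 138 CPM, and Cap1, an actin regulator gene, at 36.8 and 30.3 CPM. The N-cadherin gene Cdh2 was at 286 and 241 CPM in progenitors, -0.25 (-0.31 to -0.19), and Vasp, of the Ena/VASP actin regulators, at 22.6 and 24.2 CPM.

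Of 9 genes of turnover and cleavage, 7, 6 and 6 were measured in these whole groups and 0 were called in them. The ubiquitin ligase gene Nedd4 was at 364 and 382 CPM in excitatory neurons, 0.07 (0.05 to 0.10), and the protease gene Bmp1 at 20.3 and 21.4 CPM.

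**Figure D5:**
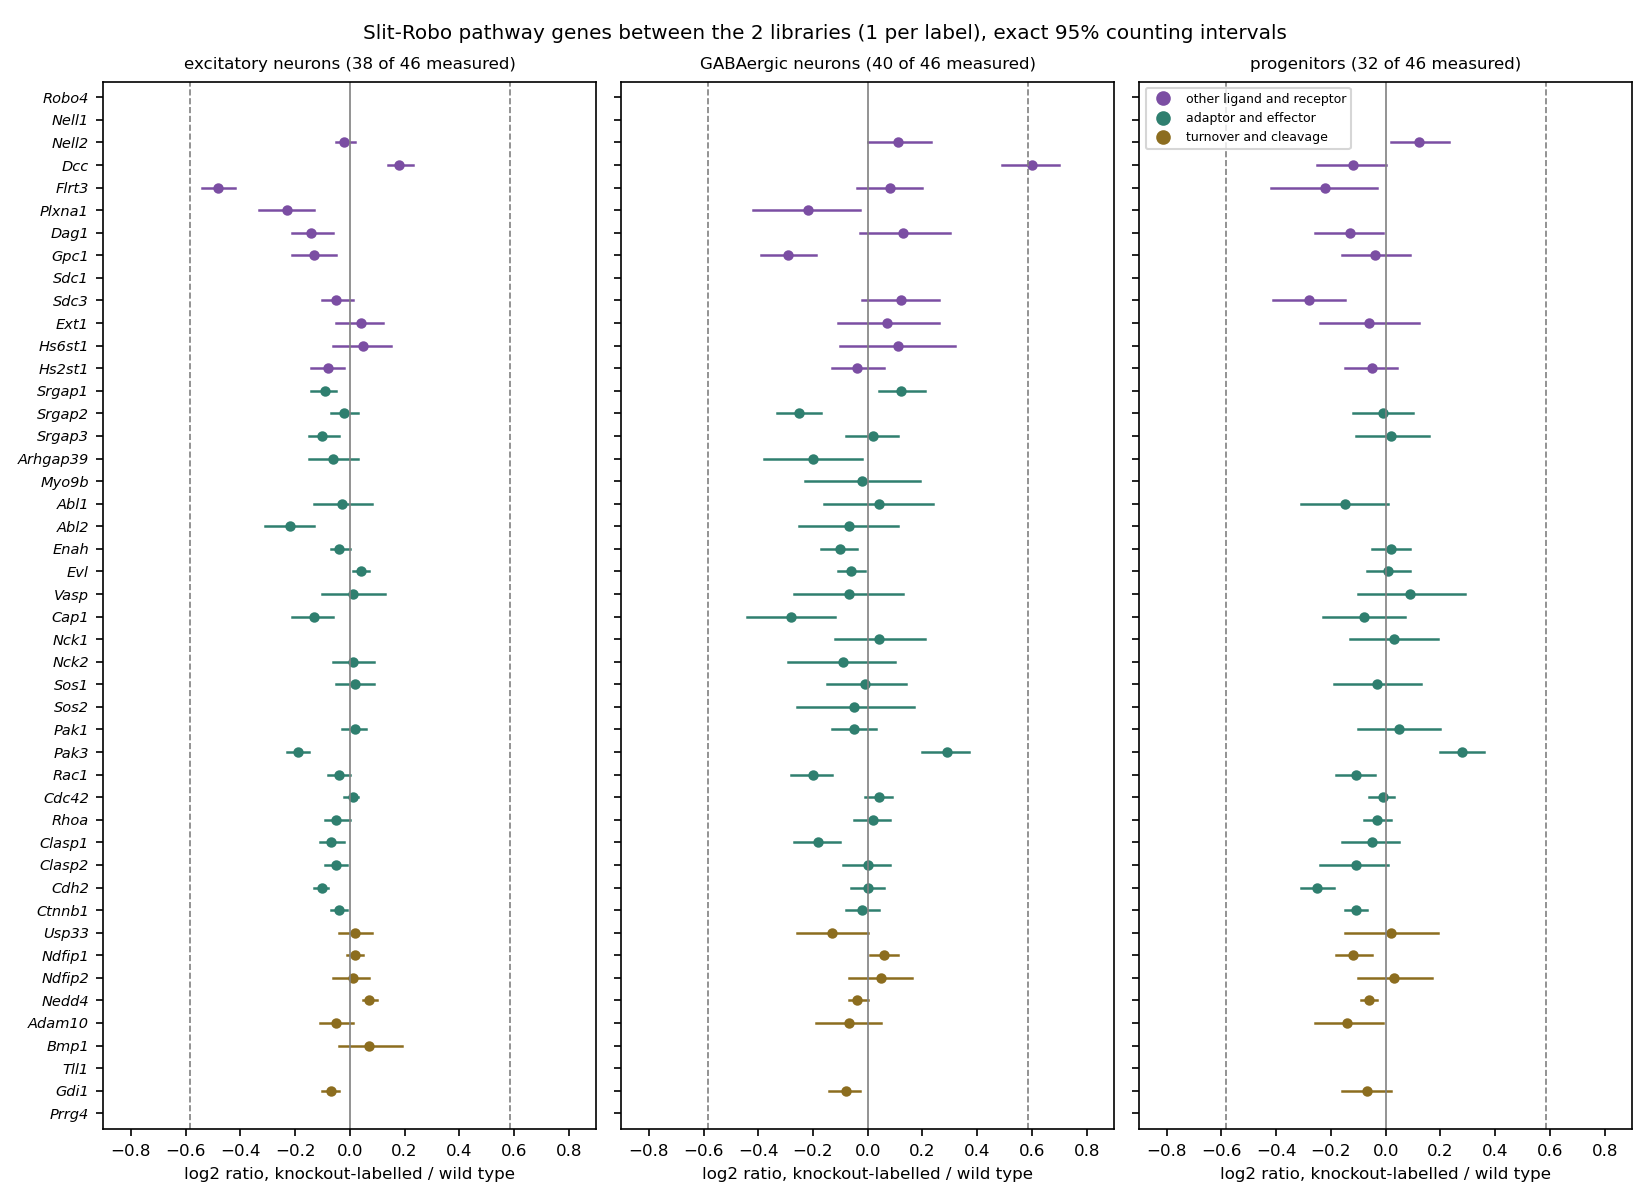
Log2 ratio (x axis, knockout-labelled divided by wild type) for the measured genes of the 46-gene pathway list (y axis, coloured by role) in 3 groups of cells, with exact 95% counting intervals and dashed lines at 1.5-fold. Only Dcc in GABAergic neurons (0.60) passes a dashed line.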

How the data were processed

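The authors deposited raw UMI counts per gene and droplet barcode. The file headers name Cell Ranger 4 and the submitters' processing notes mm10; other counting settings, strand among them, were not given in the sources used here. Cells had at least 1000 UMIs, 500 genes and at most 10% mitochondrial UMIs, which gave 9086 and 12855 cells. Scrublet scores (scanpy 1.11.5) removed 660 (7.26%) and 1322 (10.3%) as doublets, 0.8% per 1000 cells; the automatic threshold would have removed 231 and 529. Cells were clustered without the Robo and Slit genes (2000 variable genes, 30 components, 15 neighbours, umap-learn 0.5.12, Leiden resolution 1, leidenalg 0.10.2), keeping the best-scoring of 10 seeds. The other seeds gave 29 to 32 clusters and adjusted Rand indices to it of 0.708 or more (median 0.764), so class borders depend on the seed. Rounding and the choice among seeds were added after numerical noise was seen to change the clusters. Of 30 clusters, 29 were named from marker lists, by a rule revised after the clusters were seen. UMIs were summed per class and library and scaled to CPM, with exact 95% Poisson or binomial intervals that cover counting error only. Classes had at least 50 cells per library, or 20 for Cajal-Retzius cells.

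The members, lists and tests were chosen with earlier results of these data known. Named genes are the members, the 4 genes most correlated with each on log2(CPM + 10), and the pathway genes called or among the 3 largest and 3 smallest ratios in each cell group. The pathway genes called in single classes, and the cluster-level values, were picked after their values were seen. On simulated counts the rule recovered 199 of 200 changed genes in excitatory neurons, with 0 of 6496 unchanged genes called, and 166 of 200 in ventral forebrain neurons, with 77 of 6455 called. The simulated counts held counting error only, and their changes were all larger than 1.5-fold. They therefore do not cover differences between libraries or animals, nor changes close to the rule. Alternatives were other scalings, filters, clusterings and free RNA subtraction.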

Additional observations from a re-analysis of the deposited data

Results flagged for a closer look

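Robo2 was called in opposite directions in different cells. On the log2 scale it was at 1.17 in ganglionic eminence progenitors (12.3 and 27.7 CPM) and at -0.60 in excitatory cluster 11 (406 and 268 CPM), with the library labelled knockout divided by wild type. The difference between these classes was not tested, since each label has 1 library. Both directions held in every alternative that gave a value, with ranges of 0.33 to 1.87 and -0.82 to -0.58. Each class is a single cluster, so some alternatives, equal cluster weights among them, could not change these ratios. In the first of these classes the wild-type level lies below that of immune cells (31.2 CPM), most of whose Robo2 UMIs came from a single cell.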

How the results depend on the processing

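The 6 calls of the members across classes became 11 with no minimum level and 2 without the clusters of uneven share, and were 4 to 7 under the other alternatives. Leaving out those clusters removes excitatory cluster 11 and ventral forebrain neurons whole, so the loss of their calls followed from the setting. The pathway list had 1 call in the whole groups, and 3 with no minimum level, 0 with equal weight for each cluster, 0 with no doublet removed and 0 without the clusters of uneven share. The last setting, and the lowest-quality clustering among the 10 seeds, which gave 6 member calls and 1 pathway call, were chosen after seeing the data. The number of the 6 genes with the same highest class in both libraries was 4, and 4 to 5 under the alternatives. The cause of the other shifts was not tested. Of 632 values recomputed under 13 alternatives, 610 moved less than their interval, 22 moved more (9 of them with no doublet removed) and 0 called values changed direction; classes without a counterpart of shared cells gave no value. Slit2 in excitatory cluster 11 and Slit1 in ventral forebrain neurons stayed past 1.5-fold in 12 of 12 alternatives. Robo2 in cluster 11 and Robo1 in ventral forebrain neurons did so in 10 of 12, and Slit3 in excitatory cluster 13 in 9 of 13. Each of these classes is a single cluster, so equal cluster weights and no minimum level could not change its ratio. For excitatory cluster 13, leaving out the clusters of uneven share could not either. No minimum level changes only which genes are measured, so its 51 values among the 632 could not move. No paired analysis was possible because each label has 1 library, and for the same reason no library could be left out. Depth limits Robo3 most, with 32 and 133 UMIs.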

Other observations

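Robo4, the endothelial Robo, was found almost only in vascular cells, a class of 32 wild-type and 68 knockout-labelled cells that was too small for the comparisons above. It had 22 and 118 UMIs there, 55.5 CPM (34.8 to 84.0) and 105 CPM (86.7 to 125), and 4 and 2 UMIs in excitatory neurons. Removal of doublets took Robo4 from 76 to 28 UMIs over all wild-type cells but from 136 to 121 in the other library, and with doublets kept the all-cell levels were 0.689 and 1.03 CPM against 0.288 and 1.10 CPM without them. Meningeal cells, 18 and 33 in number, carried Robo1 at 70.7 CPM (46.2 to 104) and 117 CPM (92.1 to 147) and Slit2 at 21.8 and 23.8 CPM. Slit3 gave 2 and 17 UMIs in these cells, 5.44 and 26.9 CPM. Choroid plexus cells, 10 and 8 in number, had 32 and 20 UMIs of Slit2, 73.1 and 110 CPM.

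The unnamed cluster 18 had Robo2 at 61.9 and 150 CPM and Robo1 at 68.8 and 114 CPM. In cluster 10 of the striatal projection neurons Robo2 stood at 148 and 257 CPM, while in cluster 6 of the same class it stood at 306 and 286 CPM.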
